A study of Homo sapiens with 6 samples.

Results

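Homologous recombination copies an intact sister DNA molecule to mend a broken one, and the Fanconi pathway unhooks crosslinks that tie both DNA strands together. The 40 genes described here encode the machinery of both routes in human cells. They were chosen by symbol, by their known roles: 2 damage kinases, 7 genes of end resection, 4 of the BRCA mediator group, 5 of the filament group (RAD51B, RAD51C, RAD51D, XRCC2 and XRCC3), 3 of annealing and strand exchange, 4 of junction dissolution, 4 of junction resolution, 8 of the Fanconi core with FANCM, and 3 of the FANCD2-FANCI and BRIP1 group. All 40 were found among the 19977 gene symbols of the table, and all 40 were among the 12236 genes whose mean over the 6 libraries was at least 1 TPM (transcripts per 1000000, a share of the library corrected for transcript length).

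RNA was sequenced from U2OS, an established human osteosarcoma line, 48 h after siRNA transfection. There were 3 libraries transfected with a non-targeting control siRNA (siCtrl) and 3 transfected with siRNA against NUDT5 (siNUDT5), an enzyme that hydrolyses ADP-ribose. All 6 were labelled untreated, so no DNA damaging agent was given. The comparison asks which transcripts differ when NUDT5 is depleted. Everything was measured in 1 cell line, and the labels do not say whether the libraries of a group came from separate cultures, so a p-value here speaks only of the spread from library to library, and that spread may be technical in origin.

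In outline, the MRE11-RAD50-NBN complex and RBBP8 begin to trim a broken end, EXO1 or DNA2 extends the trimming, and BRCA1, PALB2 and BRCA2 then help a protein filament form on the single strand. RAD51B, RAD51C, RAD51D, XRCC2 and XRCC3 stabilise that filament, RAD54 proteins help it exchange strands, and RAD52 can anneal complementary strands. The joined molecules are separated by the BLM complex or cut by nucleases. At a crosslink the Fanconi core complex attaches ubiquitin to FANCD2 and FANCI, which brings in the nucleases and the recombination proteins.

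NUDT5 itself checked the labels: it stood at 49.1 ± 2.90 TPM (SD, n = 3) in the control libraries and at 2.82 ± 0.198 TPM (SD, n = 3) after siNUDT5, which leaves 5.74% of the control mean (log2 difference -3.71). The mesenchymal markers VIM and SPARC were high in both groups, at 3115 and 723 TPM in the controls, and RUNX2, COL1A1 and CDH2 were present, whereas COL1A2 stood at 0.132 TPM. The summed level of the mesenchymal markers ran from 4187 to 4448 TPM in the controls and from 4854 to 4954 TPM after siNUDT5. Of the markers of other cell types, CD3E and MLANA were at 0 in every library and PTPRC and KRT5 were below 0.2 TPM on average. The epithelial genes KRT18, EPCAM and CDH1 stood at 578, 9.89 and 2.18 TPM in the controls, and PECAM1 was not analysed here. Of the 8 markers tested only EPCAM passed, which fell to 5.39 TPM (adjusted p = 0.0271, limma). That call was lost without siCtrl 3 or any 1 siNUDT5 library, and without the 1 TPM filter (adjusted p = 0.0556). After the GC and length adjustment described further on, RUNX2 rose (0.42) and CDH2 (-0.19), KRT18 (-0.38) and EPCAM (-0.74) fell, and without siCtrl 2 and unadjusted, RUNX2 (0.58) and VIM (0.17) rose and KRT18 (-0.38) and EPCAM (-0.55) fell. The markers of other cell types summed to 529 to 629 TPM in the controls and to 449 to 507 TPM after siNUDT5. Judged from the steps between low values, the length-corrected read sums of the 6 libraries were 64.1% to 118% of that of siCtrl 1. TPM is corrected for transcript length, so these steps do not give read totals. The lowest by this measure was siCtrl 2, which also stood apart from the other controls for most of the 40 genes, as described further on. The part of these differences in the results below was not tested.

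RAD52, which anneals complementary single strands, was the only one of the 40 genes to pass the test with all 6 libraries, and it fell. Its values were 8.03, 8.69 and 8.53 TPM in siCtrl 1, 2 and 3 and 5.34, 5.42 and 4.15 TPM in siNUDT5 1, 2 and 3. Every siNUDT5 library was thus below every control, and the controls lay close together. The mean went from 8.42 ± 0.342 to 4.97 ± 0.712 TPM (SD, n = 3 each), or 59.1% of control. The log2 difference was -0.66 (95% interval -0.94 to -0.39, SE 0.120), with an adjusted p of 0.00859 by limma on log2(TPM + 1) with Benjamini-Hochberg adjustment over all 12236 genes. That scale understates the change of genes with low values, and RAD52 was one of the least abundant of the set. In a bulk sample, fewer cells with the transcript and less transcript per cell cannot be told apart.

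Among all tested genes 5.2% fell and 10.9% rose by the same rule, beside 1 of 40 and 0 of 40 here. A count of 1 lower is near the background. At an unadjusted p under 0.05 there were 8 members (20%), against 31.0% of all tested genes. The result for RAD52 stood under each of the 15 planned settings, the main one included, and the 3 added ones, with log2 differences from -0.76 to -0.43 and adjusted p-values (limma, Benjamini-Hochberg) from 0.00202 to 0.0436 over the planned ones. RAD52 shares no exon bases with another protein-coding gene in the GENCODE 29 annotation. Its neighbours in the RefSeq order are WNK1, a kinase of ion transport, and ERC1, a scaffold protein. WNK1 stood at 77.0 ± 5.57 and 79.6 ± 3.90 TPM and ERC1 at 44.1 ± 1.23 and 50.5 ± 1.31 TPM (siCtrl and siNUDT5, SD, n = 3 each). Neither passed the test, and neither mean was lower after siNUDT5. ERC1 was higher in every siNUDT5 library than in any control, as were 24.3% of all tested genes. After the GC and length adjustment described further on, WNK1 was at -0.07 and ERC1 at 0.09, neither past the threshold.

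The 2 RAD52 promoters that RefSeq lists are shown because this is the gene that changed, from 250 bases before the start of transcription to 20 bases after it. They lie on the minus strand of chromosome 12 in GRCh38.p14, at chr12:949675-949944 and chr12:990022-990291, and the capitals mark the transcribed bases. The libraries do not tell which start was used.
RAD52 promoter at 949675: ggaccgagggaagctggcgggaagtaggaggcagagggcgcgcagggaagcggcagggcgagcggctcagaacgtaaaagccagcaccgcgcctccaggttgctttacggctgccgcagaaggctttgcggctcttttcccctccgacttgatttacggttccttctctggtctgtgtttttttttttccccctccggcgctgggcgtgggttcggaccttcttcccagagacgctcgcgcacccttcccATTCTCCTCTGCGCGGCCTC
RAD52 promoter at 990022: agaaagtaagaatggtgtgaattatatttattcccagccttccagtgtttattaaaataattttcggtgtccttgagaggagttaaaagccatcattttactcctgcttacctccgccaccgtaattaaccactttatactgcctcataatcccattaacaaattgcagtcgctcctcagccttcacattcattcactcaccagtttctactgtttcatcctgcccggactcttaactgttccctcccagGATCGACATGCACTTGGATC
Over the 300 bases searched, the first held 61% and the second 43% G and C. Neither held any of the E2F, CCAAT or CHR words searched, which are spelled out with the promoters of the other genes. Related motifs with other letters were not searched.

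Much of the spread lay among the controls. In 29 of the 40 genes (72.5%) siCtrl 2 was the highest control, against 49.96% of all tested genes. The direction followed the base composition of the transcripts. Of the 29 members whose longest coding transcript was below the median GC content of tested genes (48.3%), 27 were highest in siCtrl 2, with a median ratio to the mean of siCtrl 1 and 3 of 1.38. Of the 11 above that median, 8 were lowest in siCtrl 2, with a median ratio of 0.870. FANCB reached a ratio of 1.85, RMI1 1.68, FANCM 1.65, BRCA2 and GEN1 1.64 each, and at the other end stood MUS81 with 0.777 and XRCC3 with 0.761. RAD52, at 1.0496, was barely displaced.

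**Figure D1:**
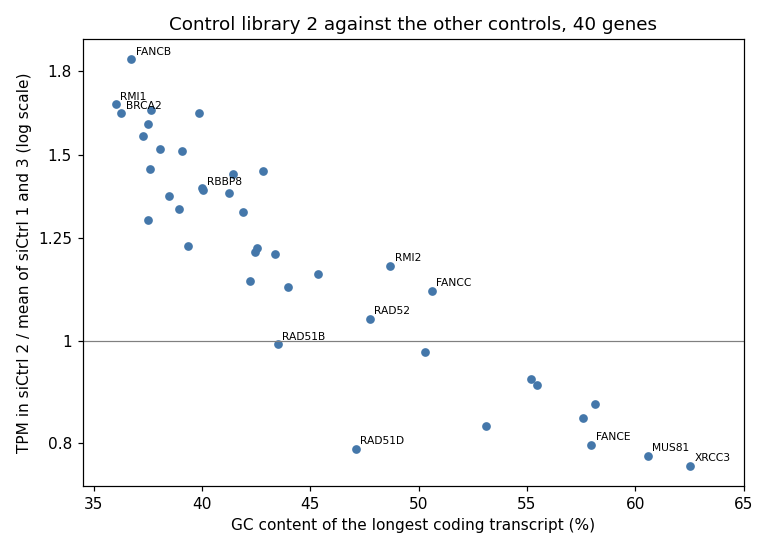
Each point is 1 of the 40 genes, with the GC content of its longest coding transcript (%) on the horizontal axis and its TPM in siCtrl 2 divided by the mean of siCtrl 1 and siCtrl 3 on a log vertical axis. Most genes of low GC content sit above 1, up to FANCB at 1.85, except RAD51B and RAD51D, and most genes of high GC content sit below 1, down to XRCC3 at 0.761.

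Across the 40 genes the deviation of siCtrl 2 from the mean of its group had a Spearman correlation of -0.92 with GC content. The value was 0.93 for siCtrl 1, 0.68 for siCtrl 3, -0.70 for siNUDT5 1, 0.66 for siNUDT5 2 and -0.04 for siNUDT5 3. These are descriptions over genes that share libraries and base composition, and deviations within a group sum to 0. Over all 12036 tested genes with a GC value, siCtrl 2 had -0.83 and siCtrl 1 had 0.80. The members have a median GC content of 42.3%, so most of them lie where siCtrl 2 was high.

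For this reason each gene was also fitted after a smooth curve of GC content and then of transcript length had been removed from every library. This adjustment was chosen after seeing the data, and it also removes any difference between the groups that runs with GC content or length. Adjusted in this way, 13 of the 40 fell and 2 rose, beside 20.3% lower and 21.2% higher among 12036 genes. The median standard error of the members went from 0.132 to 0.063 on the log2 scale. Without siCtrl 2 and without adjustment, 2 fell (RAD52 and RBBP8, background 9.27%) and 3 rose (NBN, RMI2 and FANCC, background 21.9%). Without siCtrl 1, 4 fell (RAD52, RBBP8, BARD1 and BLM, background 6.06%) and 0 rose (background 10.9%). With both the adjustment and siCtrl 2 left out, 18 fell (background 21.8%) and 3 rose (background 22.9%).

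The median log2 difference of the 40 genes was -0.10 (quartiles -0.21 and 0.00), beside 0.05 over all tested genes, and 29 of 40 (72.5%) were below 0, beside 42.3%. After adjustment the medians were -0.13 and -0.01. The libraries of the groups did not overlap for 6 members that were lower after siNUDT5 (RAD52, RBBP8, PALB2, BLM, EME1 and RAD51B), beside 12.9% of all tested genes, and for 1 that was higher (FANCC), beside 24.3%. The summed level of the 40 genes was 1296 ± 163 TPM in the controls and 1194 ± 70.9 TPM after siNUDT5 (SD, n = 3 each). For 22 of the 40 (55.0%) the whole 95% interval lay within 0.5 of 0 on the log2 scale, close to the 56.5% of all tested genes. Without siCtrl 2 the median of the set was -0.04, beside 0.07 over all genes.

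**Figure D2:**
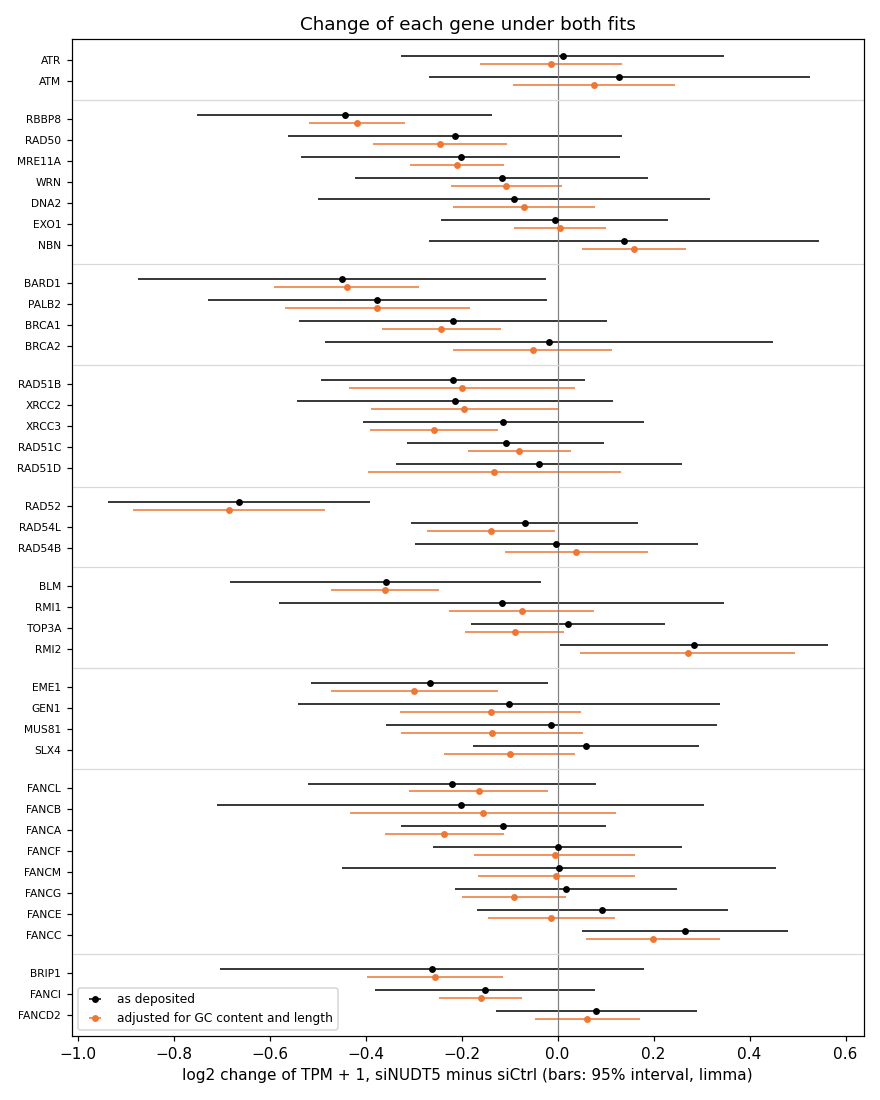
Log2 difference of TPM + 1, siNUDT5 minus siCtrl, for each of the 40 genes grouped by role, with 95% intervals from limma as deposited (black) and after the adjustment for GC content and length (orange). RAD52, at -0.66 and -0.69, is the lowest under both fits, and the orange interval is narrower for each of the 40 genes.

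Both damage kinases were measured at similar low levels. ATM, which answers broken ends, had 7.33, 11.5 and 7.92 TPM in the controls and 11.5, 8.99 and 8.75 TPM after siNUDT5. ATR, which answers single-stranded DNA, had 7.50, 11.3 and 8.77 TPM in the controls and 10.02, 8.84 and 8.66 TPM after siNUDT5. The groups overlapped for both, with 1 high library on either side. The log2 differences were 0.13 for ATM (95% interval -0.27 to 0.53) and 0.01 for ATR (-0.33 to 0.35), and neither passed. The direction for ATR turned with the scaling and with the adjustment, to values no lower than -0.06. With 1 library left out, the difference for ATR lay between -0.11 and 0.16.

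Among the 7 resection genes, RBBP8 (CtIP), which starts the trimming with the MRE11 complex, differed most. It had 82.0, 116 and 84.4 TPM in the controls and 72.5, 64.2 and 67.6 TPM after siNUDT5. All 3 siNUDT5 libraries were below all controls, and siCtrl 2 was well above the rest. The log2 difference was -0.44 (95% interval -0.75 to -0.14), which missed the threshold (adjusted p = 0.0579, limma). Without siCtrl 2, a library that raised the control mean, the difference was -0.29 and passed (adjusted p = 0.0129, limma), and after adjustment it was -0.42 (adjusted p = 9.85e-05).

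The MRE11-RAD50-NBN complex has 3 subunits. MRE11A, the nuclease, stood at 43.3 ± 4.69 TPM after siNUDT5 against 50.4 ± 10.00 TPM, and RAD50, the tether, at 21.8 ± 2.16 against 25.8 ± 5.71 TPM (SD, n = 3 each). NBN, the subunit that recruits ATM, stood at 88.7 ± 9.71 against 82.2 ± 22.9 TPM. None passed with all libraries. After adjustment MRE11A (-0.21, adjusted p = 0.00443, limma) and RAD50 (-0.25, adjusted p = 0.0113) fell and NBN rose (0.16, adjusted p = 0.0256). Without siCtrl 2 and unadjusted, MRE11A was at -0.05 and RAD50 at -0.05, neither past the threshold, and NBN rose (0.35, adjusted p = 0.0124). The sign of NBN turned among the planned settings, which ran from -0.01 to 0.35. The long-range resection enzymes lay nearer to 0: EXO1 went from 72.9 to 72.2 TPM, DNA2 from 32.6 to 30.1 TPM and the helicase WRN from 21.2 to 19.3 TPM, and none passed with or without adjustment. Counting of RAD50 may include other transcripts, since 79.7% of its exon bases are shared on the same strand with an annotated readthrough gene.

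The ratio of subunits inside a library cancels what the libraries do to both genes alike. The ratio of NBN to RAD50 was 2.95, 3.34 and 3.19 in the controls and 4.08, 3.96 and 4.14 after siNUDT5. The ratio of NBN to MRE11A was 1.55, 1.76 and 1.54 in the controls and 2.04, 1.996 and 2.12 after siNUDT5. Both were higher in every siNUDT5 library than in any control, whereas MRE11A to RAD50 overlapped, at 1.96 ± 0.104 and 1.98 ± 0.0246 (SD, n = 3 each). Each separated ratio had p = 0.1 by an exact two-sided permutation test, the smallest that 3 against 3 allows, and 0.367 after Benjamini-Hochberg adjustment over the 11 pairs examined. The pairs were chosen after the TPM values had been seen. GC contents were 37.3% for NBN, 38.5% for MRE11A and 41.4% for RAD50.

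**Figure D3:**
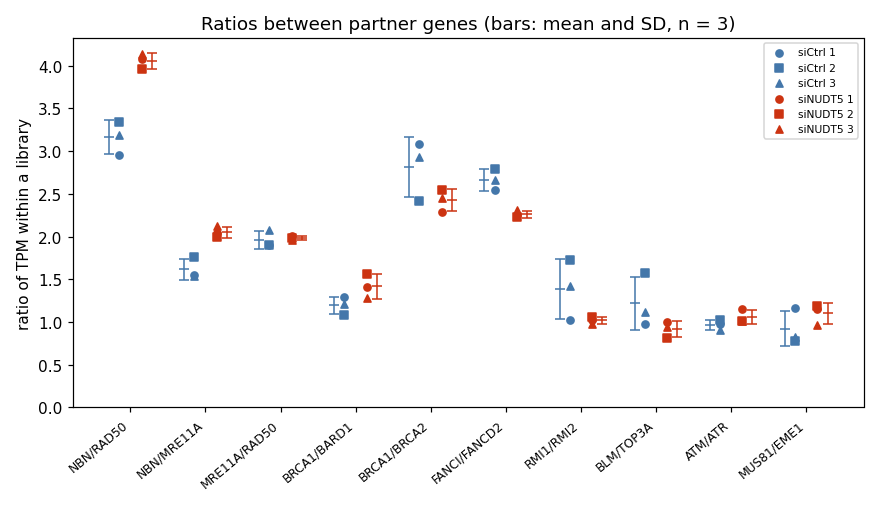
Ratio of TPM between partner genes within each library (vertical axis, no unit), for 10 of the 11 pairs along the horizontal axis, with points per library and bars for the mean and SD (n = 3). The siNUDT5 points lie above all control points for NBN/RAD50 and NBN/MRE11A and below them for FANCI/FANCD2, and RAD51C/RAD51D, near 16, is left off the scale.

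In the BRCA mediator group, BARD1 and PALB2 had the largest differences. BARD1, the partner that forms a ubiquitin ligase with BRCA1, had 25.5, 42.2 and 30.1 TPM in the controls and 26.5, 19.5 and 23.8 TPM after siNUDT5. The groups overlapped only by siCtrl 1 and siNUDT5 1. Its log2 difference was -0.45 (95% interval -0.87 to -0.03, adjusted p = 0.14, limma), and -0.44 after adjustment (adjusted p = 0.000797). It was -0.25 without siCtrl 2 (adjusted p = 0.131) and -0.61 without siCtrl 1 (adjusted p = 0.0436), which passed. PALB2, the bridge between BRCA1 and BRCA2, had 12.9, 18.8 and 13.0 TPM in the controls and 11.6, 9.85 and 11.9 TPM after siNUDT5. The groups did not overlap, although siNUDT5 3 and siCtrl 1 were close. The log2 difference of PALB2 was -0.38 (95% interval -0.73 to -0.02, adjusted p = 0.139), the same after adjustment (adjusted p = 0.00682) and -0.21 without siCtrl 2 (adjusted p = 0.153).

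BRCA1, which promotes resection and recruits PALB2, had 32.8, 45.9 and 36.5 TPM in the controls and 37.3, 30.4 and 30.4 TPM after siNUDT5. Its groups overlapped, with a log2 difference of -0.22 (95% interval -0.54 to 0.10, adjusted p = 0.333, limma) that passed after adjustment (-0.24, adjusted p = 0.00675) and was -0.08 without siCtrl 2 (adjusted p = 0.564). BRCA2, which acts after PALB2 in loading the filament, had 10.6, 18.9 and 12.5 TPM in the controls and 16.3, 11.9 and 12.4 TPM after siNUDT5. Both groups held 1 high library, and the log2 difference was -0.02 (95% interval -0.48 to 0.45) and -0.05 after adjustment, passing in neither. Without siCtrl 2 the value for BRCA2 was 0.21 (adjusted p = 0.248). The ratio of BRCA1 to BRCA2 was 2.81 ± 0.347 in the controls and 2.43 ± 0.132 after siNUDT5 (SD, n = 3 each), with overlapping groups (p = 0.3, exact permutation test).

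Of the 5 genes of the filament group, RAD51C was the most abundant of all 40 genes, and RAD51B the least. RAD51C ranged from 126 to 156 TPM over the 6 libraries and went from 143 ± 12.7 to 133 ± 6.54 TPM (SD, n = 3 each). RAD51B had 5.92, 6.33 and 6.83 TPM in the controls and 5.85, 5.62 and 4.56 TPM after siNUDT5. These groups were separate by a narrow margin, and the log2 difference was -0.22 (95% interval -0.49 to 0.06, adjusted p = 0.255, limma). RAD51D went from 8.85 to 8.55 TPM, XRCC2 from 8.48 to 7.19 TPM and XRCC3 from 15.1 to 13.8 TPM, and none passed with all libraries. After adjustment only XRCC3 of the 5 fell (-0.26, adjusted p = 0.00705), and 76.7% of its exon bases overlap KLC1 on the opposite strand. With siCtrl 2 also left out, RAD51B, RAD51C, RAD51D and XRCC3 passed as lower.

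Neither strand exchange motor beside RAD52 passed with all libraries. RAD54L went from 37.9 ± 3.93 to 36.0 ± 2.08 TPM, with a log2 difference of -0.07 (95% interval -0.30 to 0.17). It was -0.16 without siCtrl 2 and -0.14 after adjustment, passing in neither, and passed as lower with both (-0.19, adjusted p = 0.0104, limma). RAD54B was at 10.96 ± 1.77 and 10.9 ± 0.887 TPM (SD, n = 3 each), with a log2 difference of 0.00 (-0.30 to 0.29). RAD54B shares 59.1% of its exon bases with FSBP on the same strand.

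BLM, the helicase that dissolves joined molecules together with TOP3A, RMI1 and RMI2, had 31.2, 45.8 and 35.2 TPM in the controls and 31.0, 26.8 and 28.1 TPM after siNUDT5. The groups were separate only by the narrow gap between siNUDT5 1 and siCtrl 1. The log2 difference was -0.36 (95% interval -0.68 to -0.03, adjusted p = 0.127, limma), the same after adjustment (adjusted p = 0.000483) and -0.21 without siCtrl 2 (adjusted p = 0.111). RMI2 ran the other way, with 21.6, 23.9 and 19.02 TPM in the controls and 29.6, 23.4 and 26.2 TPM after siNUDT5. Its groups overlapped by siCtrl 2 and siNUDT5 2. The log2 difference of RMI2 was 0.28 (95% interval 0.00 to 0.56, adjusted p = 0.155), and 0.36 without siCtrl 2 (adjusted p = 0.0213) and 0.27 after adjustment (adjusted p = 0.054). The topoisomerase TOP3A stood at 30.8 and 31.3 TPM and RMI1 at 30.1 and 26.9 TPM, and neither passed with or without adjustment.

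**Figure D4:**
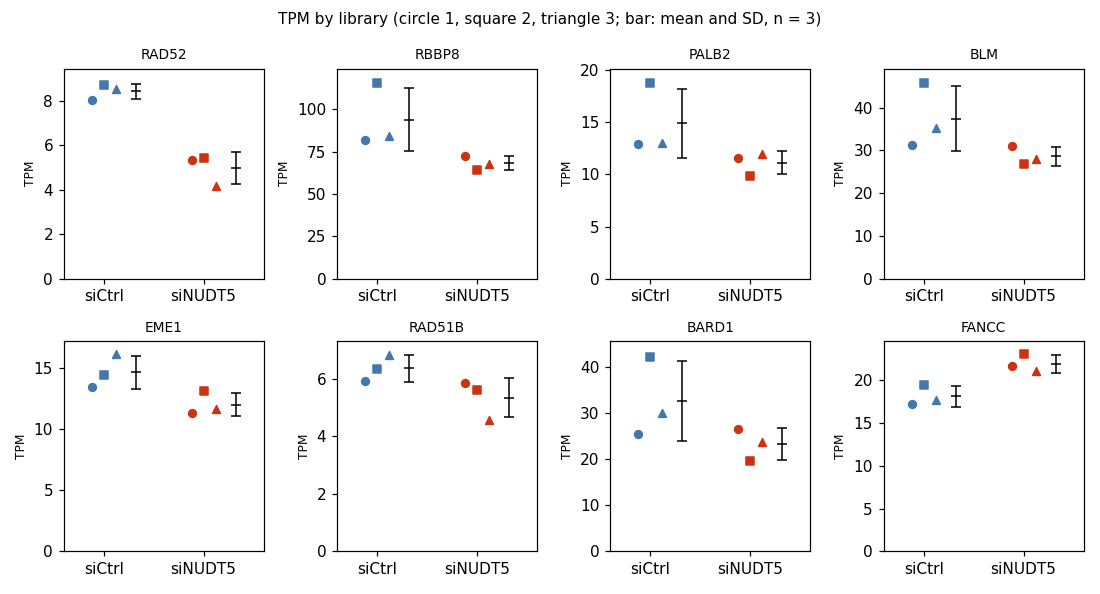
TPM (vertical axes, starting at 0) in each control (blue) and siNUDT5 (red) library for RAD52, the other 5 genes whose siNUDT5 libraries were all lower, BARD1 and FANCC, with bars for the mean and SD (n = 3). The control points lie within 0.7 TPM of each other for RAD52, whereas siCtrl 2 stands above the other controls for RBBP8, PALB2, BLM and BARD1.

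Among the nucleases and scaffolds of junction resolution, EME1, the partner of the nuclease MUS81, had 13.4, 14.4 and 16.1 TPM in the controls and 11.3, 13.1 and 11.6 TPM after siNUDT5. All siNUDT5 libraries were lower, and siCtrl 2 was in the middle of the controls. The log2 difference was -0.27 (95% interval -0.51 to -0.02, adjusted p = 0.134, limma) and -0.30 after adjustment (adjusted p = 0.0126). MUS81 itself stood at 13.4 and 13.3 TPM, the scaffold SLX4 at 11.2 and 11.7 TPM and the junction cutter GEN1 at 14.2 and 12.8 TPM. None of the 3 passed with or without adjustment, and the ratio of MUS81 to EME1 overlapped between the groups (p = 0.3, exact permutation test).

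Of the 8 Fanconi core genes, FANCM among them, FANCC was the 1 whose siNUDT5 libraries were all higher. FANCC, a core subunit that joins FANCE and FANCF, had 17.2, 19.4 and 17.6 TPM in the controls and 21.7, 23.0 and 20.98 TPM after siNUDT5. The highest control lay below the lowest siNUDT5 library. The log2 difference was 0.26 (95% interval 0.05 to 0.48), short of the threshold with all libraries (adjusted p = 0.0935, limma), and past it without siCtrl 2 (0.31, adjusted p = 0.0163) and after adjustment (0.20, adjusted p = 0.0285). FANCL, the ubiquitin ligase of the complex, had 33.5, 43.3 and 37.0 TPM in the controls and 37.8, 29.6 and 29.99 TPM after siNUDT5. The first siNUDT5 library lay among the controls, and the log2 difference of -0.22 (95% interval -0.52 to 0.08) did not pass (adjusted p = 0.294, limma). Nor did -0.16 after adjustment (adjusted p = 0.0669) or -0.12 without siCtrl 2 (adjusted p = 0.413). With the adjustment and without siCtrl 2, FANCL passed as lower (-0.20, adjusted p = 0.0307).

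The remaining core genes lay within their spread with all libraries. FANCA stood at 16.9 ± 0.943 and 15.5 ± 0.648 TPM, FANCB at 9.04 ± 3.57 and 7.40 ± 0.660 TPM, and FANCE at 30.8 ± 3.91 and 32.8 ± 2.25 TPM (siCtrl and siNUDT5, SD, n = 3 each). FANCF was at 10.7 TPM in both groups, FANCG at 74.3 and 75.2 TPM, and FANCM, the translocase that anchors the complex to DNA, at 15.1 and 14.7 TPM. After adjustment FANCA fell (-0.24, adjusted p = 0.00788, limma), and 23.6% of its exon bases overlap ZNF276 on the opposite strand. As deposited, 4 of the 8 core genes were below 0. After adjustment every estimate but that of FANCC was below 0, from -0.24 for FANCA to -0.003 for FANCM. Past the threshold 1 had fallen and 1 had risen.

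FANCD2 and FANCI are the paired substrate of that ligase. FANCD2 had 34.7, 39.2 and 35.0 TPM in the controls and 40.9, 37.0 and 37.4 TPM after siNUDT5, with overlapping groups and a log2 difference of 0.08 (95% interval -0.13 to 0.29). FANCI stood at 96.9 ± 11.2 and 86.9 ± 4.69 TPM (SD, n = 3 each), with a log2 difference of -0.15 that passed after adjustment (-0.16, adjusted p = 0.00879, limma) and was -0.06 without siCtrl 2. The ratio of FANCI to FANCD2 was 2.54, 2.80 and 2.66 in the controls and 2.25, 2.23 and 2.31 after siNUDT5. Every siNUDT5 library was below every control, with p = 0.1 by the exact permutation test and 0.367 adjusted over the 11 pairs. Their GC contents are nearly equal, at 43.4% for FANCI and 44.0% for FANCD2.

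BRIP1 (FANCJ), a helicase that binds BRCA1, had 30.9, 53.02 and 35.2 TPM in the controls and 37.3, 28.3 and 31.2 TPM after siNUDT5. The groups overlapped, with siNUDT5 2 below every control and siCtrl 2 far above all other libraries. The log2 difference was -0.26 (95% interval -0.70 to 0.18, adjusted p = 0.401, limma), -0.04 without siCtrl 2 (adjusted p = 0.824) and -0.26 after adjustment (adjusted p = 0.0098). The call for BRIP1 rests on the adjustment.

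By role, the median log2 difference as deposited and after adjustment was -0.30 and -0.31 for the BRCA mediators, where 3 of 4 fell after adjustment. It was -0.12 and -0.11 for end resection (3 of 7 fell and 1 rose), -0.11 and -0.19 for the filament group (1 of 5 fell), and -0.15 and -0.16 for FANCD2, FANCI and BRIP1 (2 of 3 fell). Annealing and strand exchange had -0.07 and -0.14, dissolution -0.05 and -0.08, and resolution -0.06 and -0.14, with 1 gene fallen in each. The Fanconi core had 0.00 and -0.05, and the kinases 0.07 and 0.03 with no gene past the threshold. Beside the 20.3% lower and 21.2% higher of all genes, a count of 1 in a group of 4 or 5 is near the background. Without siCtrl 2, as deposited, the median was -0.15 for the BRCA mediators, 0.02 for end resection, 0.05 for dissolution and -0.04 for FANCD2, FANCI and BRIP1, so it shrank or turned in these groups. It was -0.14 for the filament group, -0.16 for annealing and strand exchange, -0.07 for resolution, 0.03 for the Fanconi core and 0.23 for the kinases. These are descriptions of small groups, and differences between roles were not tested.

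In level, the 40 genes spread over the middle of the transcriptome, with a median of 22.03 TPM beside 22.4 TPM for all tested genes. RAD51C, at 138 TPM over the 6 libraries, stood clear of the next gene, FANCI, at 91.9 TPM. NBN, RBBP8, FANCG and EXO1 followed at 85.5, 81.0, 74.7 and 72.5 TPM, with ranges that overlapped from each to the next. Between EXO1 and MRE11A, at 46.8 TPM, the ranges again did not overlap, and below MRE11A every gene overlapped its neighbour in the order. The lowest were ATM, ATR, RAD51D, FANCB, XRCC2, RAD52 and RAD51B, from 9.34 down to 5.85 TPM. RAD52, at 6.69 TPM over the 6 libraries, was thus the last but 1, and RAD51B lay at the 20.5th percentile of tested genes.

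**Figure D5:**
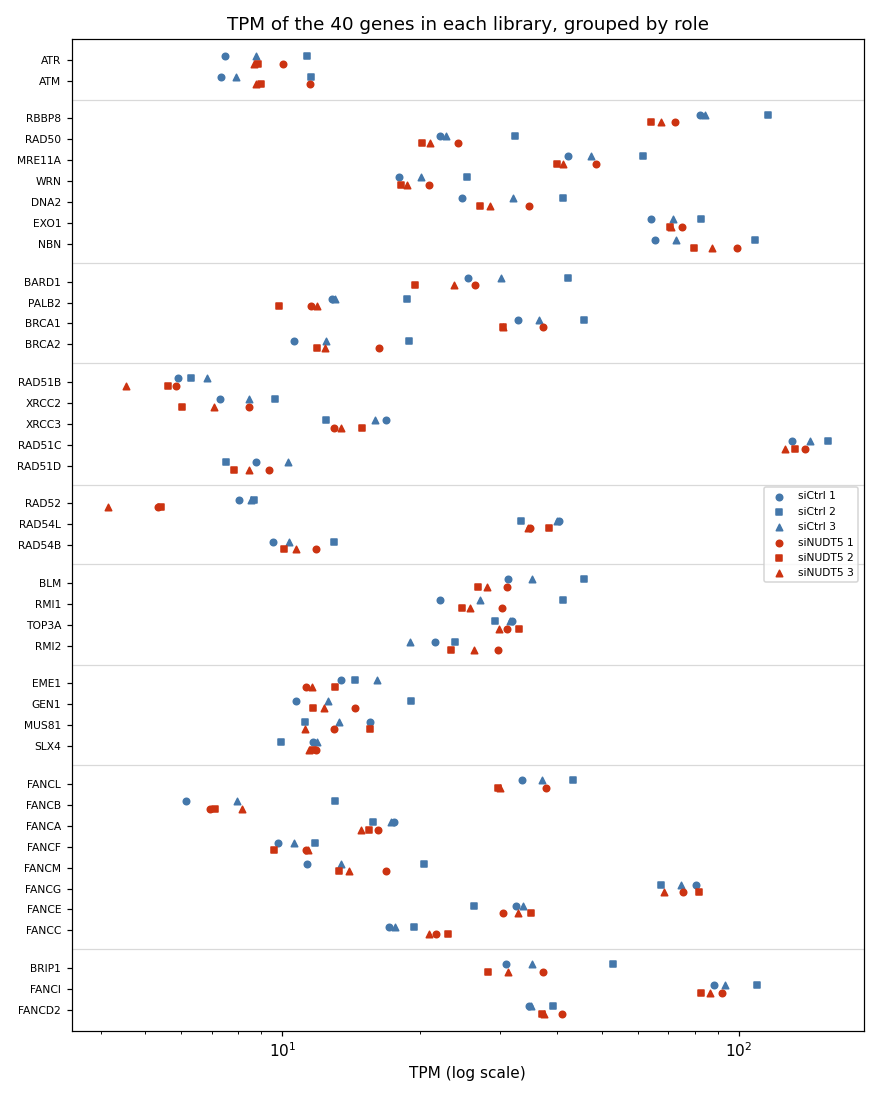
TPM of each of the 40 genes (log horizontal axis) in the 3 siCtrl (blue) and 3 siNUDT5 (red) libraries, with circle, square and triangle for libraries 1, 2 and 3, grouped by role from the kinases at the top to FANCD2, FANCI and BRIP1 at the bottom. RAD51C lies highest, from 126 to 156 TPM, RAD52 is the gene with the widest gap between the colours, and the blue square of siCtrl 2 is the rightmost control in 29 genes.

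Beside the members, 71 other genes of recombination and crosslink repair were listed, all of them in the table and 67 of them tested. One fell and another rose, beside 5.2% lower and 10.9% higher among all tested genes. MND1, which acts in strand invasion in meiosis, had 44.9, 57.2 and 47.9 TPM in the controls and 34.7, 27.2 and 30.7 TPM after siNUDT5. The groups did not overlap. The log2 difference of MND1 was -0.68 (95% interval -0.96 to -0.39, adjusted p = 0.00953, limma), and without siNUDT5 3 it was the same but missed the threshold (adjusted p = 0.0509). POLH, the polymerase that copies past ultraviolet lesions, had 23.9, 24.0 and 26.5 TPM in the controls and 38.2, 32.4 and 31.3 TPM after siNUDT5. All siNUDT5 libraries of POLH were higher, with a log2 difference of 0.43 (95% interval 0.20 to 0.67, adjusted p = 0.0264, limma). The call was lost without siCtrl 3 (adjusted p = 0.0689) or any of siNUDT5 1, 2 and 3 (0.11, 0.0804 and 0.0668), and with a replicate block (0.121). Both genes passed after adjustment.

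The median of these 67 genes was -0.07, with 45 of them (67.2%) below 0. After adjustment 20 of 66 fell and 5 rose, and without siCtrl 2, 3 of 67 fell and 5 rose, beside the same backgrounds as above.

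Many of these genes are transcribed most in S phase, so genes that mark cycling cells were read beside them. Of 15 S phase genes, TYMS, UNG and SLBP fell, by 0.29, 0.31 and 0.33 on the log2 scale, and PCNA rose by 0.38 (adjusted p from 0.0209 to 0.0308, limma). The summed S phase level ran from 3470 to 3754 TPM in the controls and from 3331 to 3558 TPM after siNUDT5, with overlap. Of 15 G2 and M phase genes only HMMR rose, by 1.01 (adjusted p = 0.0115), and the summed level again overlapped. All 5 calls were lost when siNUDT5 1 was left out, with adjusted p-values from 0.0507 to 0.125. All but that of HMMR were also lost without siCtrl 3, siNUDT5 2 or siNUDT5 3, and those of PCNA and UNG without siCtrl 1. With a replicate block all but that of HMMR were lost as well (adjusted p from 0.101 to 0.180, limma). Those of PCNA and TYMS were lost with no trend in the fit (0.0529 and 0.0541), and that of PCNA without the 1 TPM filter (0.0531). The medians were -0.06 for S phase and 0.08 for G2 and M. After the GC and length adjustment 8 of the 15 S phase genes fell (MCM3, MCM6, CDT1, CCNE2, RRM2, TYMS, UNG and SLBP) and PCNA rose, with a median of -0.15, beside 13 of 40 fallen and a median of -0.13 for the members and 20.3% lower over all genes. Under the same fit 2 of the 15 G2 and M genes fell and 2 rose, with a median of 0.06. The part of the cell cycle in the differences of the 40 genes was not tested.

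Promoters were looked at because E2F factors drive many S phase genes. RefSeq promoters (GRCh38.p14, from 250 bases before to 50 after each start) were matched for 34 of the 40 genes, 46 promoters in all. An E2F word (TTTCCCGC, TTTGGCGC, TTTCGCGC or TTTGCCGC, on either strand) was found in 7 of the 46 (15.2%), beside 3.31% of all 35116 promoters. That background covers 27305 genes, many of them not among the 12236 tested here, whereas all members were tested. CCAAT, on either strand, was in 34.8% beside 34.6%, and a CHR word (TTTGAA or TTCGAA, on either strand) in 8.70% beside 16.4%. No E2F match overlapped a CCAAT or CHR match. The 7 genes with an E2F word came from resection, resolution, dissolution, the filament group and the Fanconi group, and each match is shown with 11 bases on either side, written along the gene's own strand with the word in capitals.
EXO1 chr1:241848197-241848226, plus strand: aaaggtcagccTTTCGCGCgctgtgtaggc
GEN1 chr2:17753859-17753888, plus strand: cagttgcggggTTTCGCGCcgccggagtct
FANCD2 chr3:10026424-10026453, plus strand: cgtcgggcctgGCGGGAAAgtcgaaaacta
XRCC2 chr7:152676102-152676131, minus strand: tggcgttggtgGCGGGAAAgttgagtctct
RMI1 chr9:83980762-83980791, plus strand: ggcgcgagcgcGCGGCAAAtcgggcgggaa
FANCC upstream match chr9:95317863-95317892, minus strand: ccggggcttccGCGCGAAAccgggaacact
FANCC downstream match chr9:95317737-95317766, minus strand: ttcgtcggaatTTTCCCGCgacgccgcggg
FANCA chr16:89816801-89816830, minus strand: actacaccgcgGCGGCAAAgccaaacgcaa
The word in FANCD2 begins 2 bases before the start of transcription and runs across it, and those in GEN1, EXO1 and XRCC2 begin at bases 2, 5 and 22 of the transcript. The median log2 difference was -0.10 for the 7 genes with an E2F word and -0.11 for the 27 matched genes without one. FANCC, the gene with 2 such words, was the member with separate and higher siNUDT5 libraries, FANCA fell after adjustment, and EXO1, GEN1, FANCD2, XRCC2 and RMI1 did not pass with or without adjustment.

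Words of the 3′ UTR had been picked earlier on these same log2 differences, so what follows is a description. In the GENCODE 29 annotation (GRCh38), AAGACTT or else AGACTTA stood in the 3′ UTR of 8 of the 40 genes (20%), beside 22.3% of the 11921 genes searched. The 8 were MRE11A, BRCA1, BARD1, PALB2, XRCC2, FANCC, FANCF and BRIP1. Their median log2 difference was -0.22, beside -0.08 for the members without the words, and over all genes the medians were -0.01 and 0.07. The third word, GATTAAC, was in ATM alone (2.50%, beside 6.19%), and RAD52 held none of the 3. The sites are shown for the 5 holders that fell after adjustment, all on the minus strand and written along the transcript, with the word in capitals.
MRE11A chr11:94417776-94417802: aggtatgtaaAAGACTTttttcccaaa
BRCA1 chr17:43044357-43044383: aagggcagtgAAGACTTgattgtacaa
BARD1 chr2:214727414-214727440: tataaaattaAAGACTTggggaaggag
PALB2 chr16:23603319-23603345: atgtccagacAGACTTAttttttattc
BRIP1 chr17:61682594-61682620: aaatcagtccAAGACTTtttcagagat
The sites of the 3 other holders are not shown, so the sites shown were picked by direction. XRCC2 stood at -0.21 and FANCF at 0.00, neither past the threshold. FANCC, with 2 sites, stood at 0.26 and rose after adjustment (0.20, adjusted p = 0.0285, limma). Of the 6 genes that were lower in every siNUDT5 library, PALB2 holds AGACTTA, and RBBP8, BLM, RAD52, EME1 and RAD51B hold none of these words.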

How the data were processed

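The table analysed holds TPM values per gene symbol, deposited by the authors for 3 siCtrl and 3 siNUDT5 libraries; each library sums to 1000000 TPM. Libraries were strand-specific mRNA libraries, per the labels' protocols. The tools STAR 2.7.3a and DESeq2 1.22.1 and the build hg19 are listed, with no role, in the submitters' processing notes. For the annotation, the counting tool and its strand setting, nothing is given in those sources. TPM keeps no read totals, so no counting interval could be given. The relative length-corrected read sum was taken from the commonest ratio between low values of 2 libraries. The members, lists and tests were chosen with earlier results of these data known.

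Values were fitted as log2(TPM + 1) with limma 3.58.1 in R 4.3.3 (lmFit, eBayes with a trend, two-sided), over genes that averaged 1 TPM or more, with Benjamini-Hochberg adjustment over all of them and a threshold of 0.05. Differences are siNUDT5 minus siCtrl. Full values were given for members past the threshold, the 12 with the largest log2 difference, and BRCA1, BRCA2, FANCD2, ATM and ATR; genes of the other pathway list were named where they passed. The added adjustment subtracted, in each library, a lowess curve (span 0.3) on GC content and then on log2 length of the longest GENCODE 29 coding transcript, available for 98.4% of tested genes; the fit does not count the curves as estimated. The script was run on simulated data with a smaller spread than these libraries, with and without a straight-line GC trend. That run does not check the adjusted calls. Ratios and motif counts were made with Python 3.11.15, scipy 1.17.1 and pandas 2.3.3. Coordinates are on GRCh38, not the build of the deposited values, and were used for sequences only. Alternatives were the pseudocount, the filter, 2 other scalings, no trend, a replicate block and each library left out.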

Additional observations from a re-analysis of the deposited data

How the results depend on the processing

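Read depth cannot be recovered as counts from TPM, and 3 libraries a group leave wide intervals for genes of low GC content, where siCtrl 2 stood apart. RAD52 passed under every one of the 18 settings, the main one included, the median of the members stayed between -0.18 and -0.04 when 1 library was left out, and NUDT5 kept its direction and its call. The count of members past the threshold was 1, and became 2 with median-ratio scaling, 3 with quantile normalization, 15 after the GC and length adjustment and 21 with the adjustment and without siCtrl 2; it lay between 1 and 5 with 1 library left out, 4 without siCtrl 1 and 5 without siCtrl 2. Over all 12236 genes the count was 1970, and 1938 and 1983 with those 2 scalings. Genes called lower numbered 636, 904 and 965, beside 1, 2 and 3 of the 40 members, all lower. With the adjustment the count over all genes was 4992, and 5373 with siCtrl 2 also left out. It ran from 764 to 3804 with 1 library left out. For the other pathway genes it was 2, then 4 with quantile normalization, 25 and 26 with the adjustments, and from 0 to 8 with 1 library left out. BRCA2 changed sign without siCtrl 2, siNUDT5 2 or siNUDT5 3, its values reaching from -0.18 to 0.21 with 1 library left out. ATR changed sign with median-ratio scaling (-0.040), quantile normalization (-0.063), the adjustment (-0.014, also with a block) and the adjustment without siCtrl 2 (-0.0032), and lay between -0.11 and 0.16 with 1 library left out. The cause of these changes was not tested. Replicate numbers are shared between the groups, and deviations of same-numbered libraries from their group means had correlations of -0.43, -0.54 and -0.04. Over all tested genes with a GC value, these deviations ran with GC content in opposite directions. The values (Spearman) were 0.80 and -0.57 for siCtrl 1 and siNUDT5 1, and -0.83 and 0.65 for siCtrl 2 and siNUDT5 2. The correlations therefore cannot tell whether same-numbered libraries were made together. With a replicate block, 739 genes, 1 member and 1 other pathway gene passed. With the block and the adjustment 4144, 14 and 19 passed, the member lost from the 15 being NBN.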
